A study of Mus musculus with 40 samples.

Results

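The genes described here encode actins, myosins, tubulins and the proteins that build, cap, cross-link or sever actin filaments. They were chosen by the start of their symbol, which 93 genes on the array matched, and by having values in at least 3 mice of each of the 4 groups, which 35 of the 93 had. These 35 are set against the 5297 genes and unnamed probes of the array that met the same requirement. No measured change entered the choice. By role, the 35 were 5 actins and actin-related genes, 11 genes of actin assembly and turnover, 5 cross-linkers and adhesion links, 2 of the tropomyosin and calponin families, 7 myosins and 5 tubulins.

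Marrow cells were taken from 20 mice of the inbred strain DBA/2. A control group of 5 mice was untreated, and 3 further groups of 5 mice received 83 mg/kg of cyclophosphamide by intraperitoneal injection and gave marrow after 1, 2 or 5 days. Cyclophosphamide is a prodrug whose active products cross-link DNA. The RNA of each mouse, labelled with Cy5, was hybridised on 2 arrays against a Cy3-labelled common pool. A label field describes the pool as untreated marrow, while its treatment field names cyclophosphamide. This was not settled here, and the pool cancels in every difference between groups. Mice of a group carry the numbers 1 to 5 in the labels, as biological replicates that were harvested independently, and their age and sex are not stated. Marrow was used whole, with no sort named in the labels.

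Actin monomers join into filaments with the help of profilin and the Arp2/3 complex, and cofilin takes filaments apart. Myosin motors pull on filaments, and filamins, actinins and plastins tie them together. In marrow these proteins serve the crawling of granulocytes, the shape of platelets and red cells and the division of precursors, for which tubulin supplies the spindle.

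All values are log2 ratios of a mouse over the pool, the mean of its 2 arrays, and a log2 difference of 1 is a doubling. The log base is taken as 2, since the sources used here do not give it; with natural logarithms every fold would be larger. A ratio to the pool says nothing about how abundant one gene is beside another. Fold changes (± SE), intervals and adjusted p-values come from limma's moderated test over all 5297 features, and a gene is said to rise or fall when its adjusted p is under 0.05. Arrays gave values for 4079 to 7977 of 13443 probes, and the 2 arrays of a mouse correlated at 0.683 to 0.957. Control mouse 4 and day 1 mouse 1 resembled their own groups least, with a mean correlation of 0.239 and 0.354. Of the marker genes of the main marrow lineages, 6 of 10 for neutrophils, 4 of 10 for red cells and 4 of 7 for B cells were measured well enough to test.

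Many known marrow members of these families could not be followed. Of the 58 genes that matched by symbol but were not tested, 29 had no value in any mouse, 16 had values in 1 to 5 mice, 8 in 6 to 10 mice and 5 in more than 10. Those with no value included Coro1a, Arpc1b, Capg, Vim, Tmsb10, Actr3 and Tpm3. Tln1, which links integrins to actin, had values in 2 mice and Cap1 in 5. Cflar, a regulator of caspase 8 that matched by letters only, also had none. The sources used here do not name the filter that left these blanks, so a blank is no measure of absence.

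Several actin genes are textbook targets of serum response factor, which binds the CArG box. Of the 35 genes, 30 had an entry in the RefSeq promoter table for GRCm38.p6, with 34 windows of 250 bases before a start site. Actb, Actr8, Arpc5l, Myo7b and Tubb2b were not matched. A CArG box, searched by its standard consensus, which reads as the same motif on both strands, lay in 3 of the 34 windows and in 482 (1.47%) of all 32851 windows. The stretches below run from the box or its flank toward the start site, with the box in capitals, and are shown because they are the matches among the 30 genes. They lie at chr6:113377863-113377912 on the plus strand (Arpc4), chr11:120348536-120348625 on the minus strand (Actg1) and chr14:20929148-20929220 on the plus strand (Vcl).
Arpc4: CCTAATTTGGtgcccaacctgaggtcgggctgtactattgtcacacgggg
Actg1: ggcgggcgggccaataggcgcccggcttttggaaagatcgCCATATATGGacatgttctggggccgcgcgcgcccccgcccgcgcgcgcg
Vcl: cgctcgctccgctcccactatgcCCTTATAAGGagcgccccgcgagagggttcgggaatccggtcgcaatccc
None of these 3 genes passed the test in any comparison below. A match of letters is a description and not a measured binding site.

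Actb rose to about double its control level on days 1 and 2, Tuba3a rose with it, and Cnn3 fell and stayed low to day 5. On day 2 the falls were of Arpc5, Cfl1, Myo7b, Myl12b and Tubb4b beside Cnn3. In number, 5 of the 35 genes passed on day 1 (14.3%, where 19.1% of all features tested did), 8 on day 2 (22.9%, against 19.2%) and 1 on day 5 (2.86%, against 2.62%). These shares are near those of all features. On day 1, 3 genes rose and 2 fell, and over all features 10.7% rose and 8.38% fell. On day 2, 2 rose and 6 fell, while 9.61% of all features went each way. On day 5 the 1 gene that passed fell, as 1.72% of all features did. The comparisons of days 1, 2 and 5 share the same control mice.

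**Figure D1:**
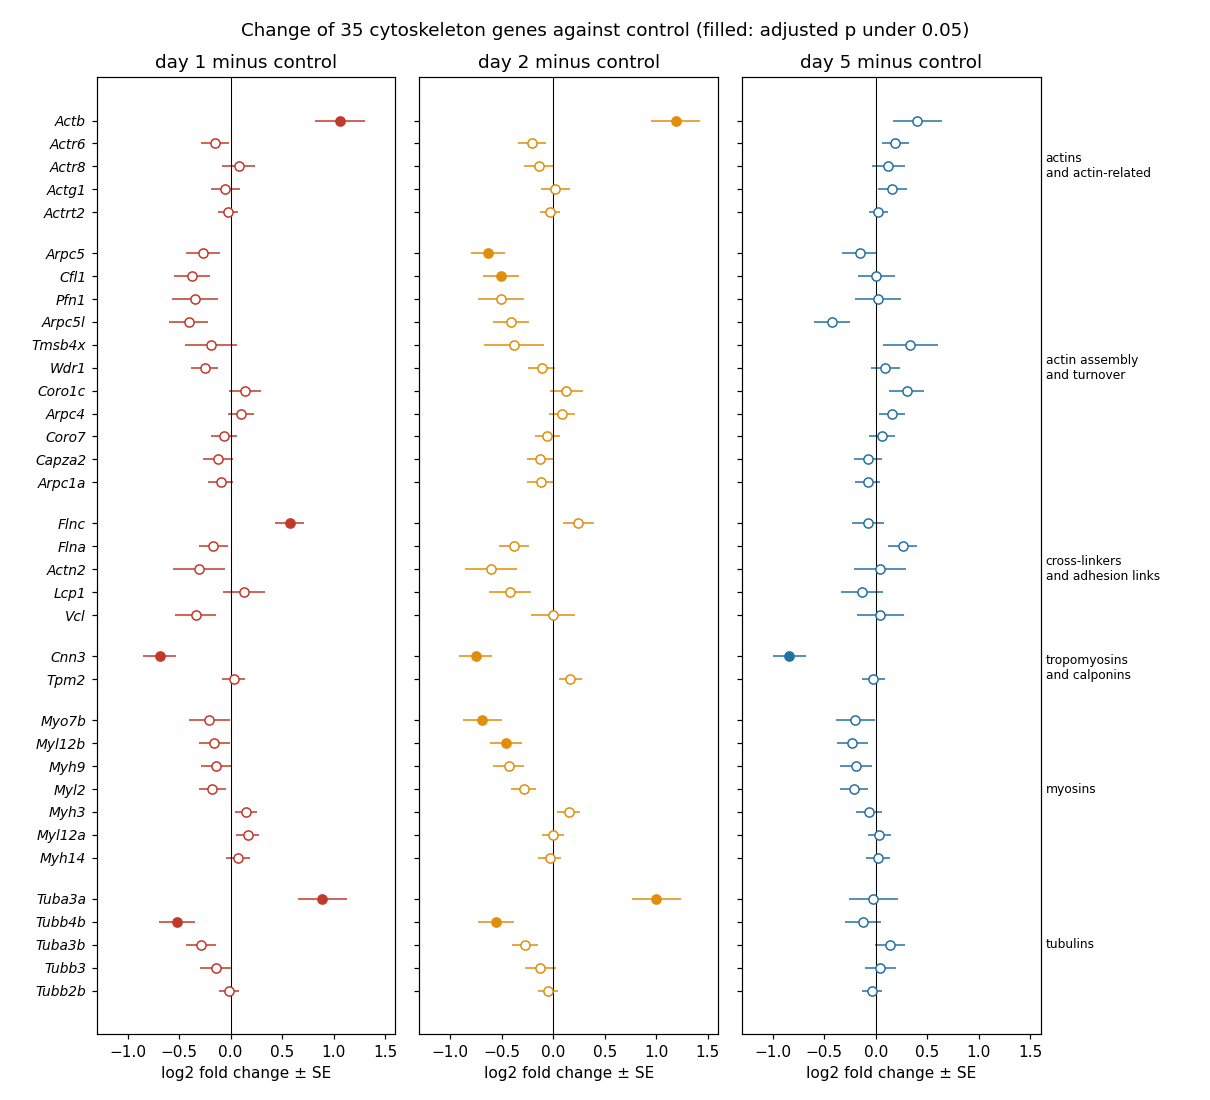
Log2 fold change against control (x axis, points with SE bars) of the 35 genes (y axis, grouped by role) on days 1, 2 and 5, filled where the adjusted p was under 0.05. Actb and Tuba3a lie to the right on days 1 and 2 and their points are open on day 5, while Cnn3 is filled on the left in all 3 panels.

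The median log2 fold change of the 35 genes was -0.14 on day 1, -0.13 on day 2 and 0.02 on day 5, where the medians of all features were -0.01, -0.02 and 0.01. On day 1 the estimate was below 0 for 24 genes and on day 2 for 26, with most of these short of the threshold. Groups of mice without overlap were found for 2 genes on day 1 (13.0% of all features), 7 on day 2 (19.0%) and 3 on day 5 (6.34%). Between days 1 and 2, 0 of the 35 genes passed in limma (2.10% of all features, with 1.36% higher and 0.736% lower on day 2), 4 had an unadjusted p under 0.05, and 0 had groups without overlap (4.34% of all features). Between days 2 and 5, 5 genes rose and 2 fell (20% of the genes, and 20.8% of all features, of which 10.3% rose and 10.5% fell). The mice of days 2 and 5 did not overlap for 7 genes (18.9% of all features), and those of days 1 and 5 for 3 (16.8%). The F test over the 4 groups passed for 9 genes (25.7%, against 30.7%), namely Cnn3, Actb, Tuba3a, Flnc, Flna, Arpc5, Tubb4b, Myo7b and Cfl1. In all, 12 genes passed in at least 1 comparison or the F test and 23 in none. The matching share of all features is not given here, so these counts only account for the 35 genes.

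Among the actins, Actb and Actg1 encode the cytoplasmic beta and gamma isoforms, which almost every cell makes. Actb had values of -0.21, -0.26, 0.32, -0.56 and -0.73 in control mice 1 to 5, of 0.79, 0.65, 0.75, 1.37 and 0.30 on day 1, of 1.04, 0.73, 1.56, 0.50 and 0.68 on day 2 and of -0.27, -0.54, 0.12, 0.81 and 0.44 on day 5. Every day 2 mouse was above every control mouse, and on day 1 only mouse 5 lay below the highest control mouse, by a small margin. The day 5 mice spread over the ranges of both.

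Actb rose by 1.06 ± 0.24 on the log2 scale on day 1 (2.09-fold, adjusted p = 0.00416) and by 1.19 ± 0.24 on day 2 (2.28-fold, adjusted p = 0.00158), higher than the control mean in 5 of 5 mice on each day. On day 5 the difference from control was 0.40 (95% interval -0.09 to 0.90, adjusted p = 0.609). From day 2 to day 5 Actb fell by 0.79 (adjusted p = 0.0199), and from day 1 to day 5 it fell by 0.66 (adjusted p = 0.0446). The rises on days 1 and 2 kept an adjusted p of at most 0.0135 and 0.00678 whichever mouse was left out. The fall from day 2 was lost without day 2 mouse 3 (adjusted p = 0.0766) and without day 5 mouse 1 or 2 (0.0528 and 0.0693). The fall from day 1 was lost with control mouse 1 or 2, day 1 mouse 1, 2, 3 or 4, or day 5 mouse 1, 2 or 3 left out (0.0501 to 0.139). It was lost too with quantile-normalized arrays (adjusted p = 0.0687), with the 2 groups fitted alone (0.0594), with genes of at least 2 mice a group tested (0.0512) and without both control mouse 4 and day 1 mouse 1 (0.0616). Of the 2 Actb probes, 1 had a value on 1 array only, of a day 5 mouse (0.48), where it was averaged in. All other values rest on the other probe, which alone gave a day 5 difference from control of 0.39.

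Actg1 did not move with Actb. Its values were 0.14, -0.03, 0.30, -0.01 and -0.13 in control mice, 0.38, -0.48, -0.06, 0.11 and 0.04 on day 1, -0.07, 0.16, 0.12, 0.04 and 0.10 on day 2 and 0.03, 0.08, 0.09, 0.72 and 0.15 on day 5. The groups overlapped throughout, with day 5 mouse 4 the highest. The differences from control were -0.05 on day 1 (95% interval -0.34 to 0.24), 0.02 on day 2 (-0.27 to 0.31) and 0.16 on day 5 (-0.13 to 0.45), and the highest bound lies below the estimates for Actb on days 1 and 2. Actg1 was read by 3 probes, whose day 1 differences were 0.07, -0.01 and -0.21.

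The difference Actb minus Actg1 within a mouse was -0.342 ± 0.248 (SD, n = 5) in control, 0.773 ± 0.438 on day 1 and 0.832 ± 0.422 on day 2. Control and treated mice did not overlap on either day (two-sided exact permutation test, p = 0.00794 for each, the smallest that 5 against 5 allows, adjusted p = 0.0238 over 12 such tests). On day 5 it was -0.0999 ± 0.357 and overlapped the control mice (exact p = 0.246, adjusted p = 0.328). The 4 gene pairs tested in this way were chosen after their values had been seen, so their p-values are descriptions and no independent support. The actins share long stretches of sequence, and which transcript a probe caught was not tested.

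**Figure D2:**
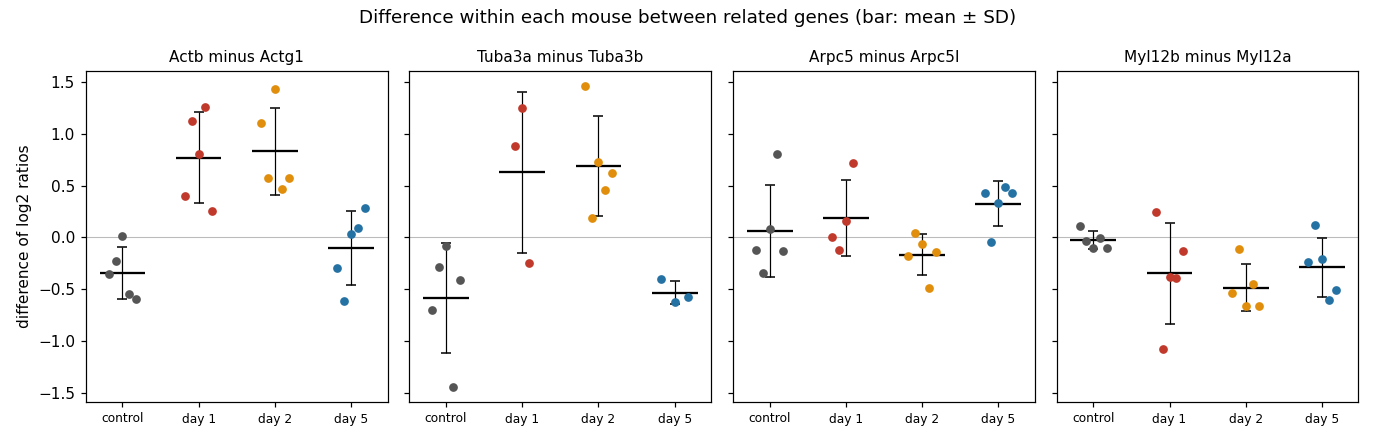
Difference of log2 ratios within each mouse (y axis) for 4 pairs of related genes, by group (x axis), with points for mice and bars for mean ± SD. Actb minus Actg1 lies above all control mice on days 1 and 2, and Myl12b minus Myl12a lies below all control mice on day 2.

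Actr6, a subunit of a chromatin remodeller, had values of -0.14, -0.09, -0.09, -0.44 and -0.21 in control mice, -0.12, -0.55, -0.59, -0.09 and -0.38 on day 1, -0.78, -0.30, -0.62, -0.15 and -0.16 on day 2 and -0.08, -0.11, -0.12, 0.32 and -0.04 on day 5. The day 5 mice all lay above the day 2 mice, and mouse 4 of day 5 stood apart at the top. Actr6 rose by 0.40 ± 0.13 from day 2 to day 5 (adjusted p = 0.038) and passed in no other comparison. The call was lost without day 2 mouse 1 (adjusted p = 0.136), day 2 mouse 3 (0.109) or day 5 mouse 4 (0.114). It was lost too with quantile-normalized arrays (0.28, adjusted p = 0.0779), with technical replicate 1 alone (0.0528) and with the 2 groups fitted alone (0.0553). Actr8, of the INO80 remodeller, and Actrt2, a testis actin-related gene, passed in none, with differences from control between -0.14 and 0.12.

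Genes of actin assembly and turnover had 0 rises on any day against control. On day 2, 2 of the 11 fell, Arpc5 and Cfl1 (18.2%, where 19.2% of all features passed and 9.61% fell), the median of the 11 was -0.13, and 9 of them had an estimate below 0. On day 1 none of the 11 passed in limma, and 2 had an unadjusted p under 0.05. By day 5 the median was 0.02.

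Arpc5 encodes a subunit of the Arp2/3 complex, which starts branches on actin filaments. It was at 0.17, 0.00, 0.55, 0.17 and -0.06 in control mice, at 0.04, -0.62, -0.26, 0.39 and -0.06 on day 1, at -0.82, -0.31, -0.49, -0.50 and -0.23 on day 2 and at -0.24, -0.18, -0.22, 0.36 and 0.35 on day 5. All day 2 mice were below all control mice, and days 1 and 5 overlapped control. Arpc5 fell by 0.64 ± 0.17 on day 2 (1.55-fold lower, adjusted p = 0.0105), a call kept whichever mouse was left out. From day 2 to day 5 it rose by 0.48 (adjusted p = 0.0444), a call lost without control mouse 1, day 1 mouse 5, day 2 mouse 1, 3 or 4 or day 5 mouse 4 or 5 (0.0508 to 0.138). It was lost too with quantile-normalized arrays (0.36, adjusted p = 0.127), with technical replicate 2 alone (0.0864) and with genes of at least 2 mice a group tested (0.0513). Its paralog Arpc5l had differences of -0.41, -0.41 and -0.42 on days 1, 2 and 5, none of which passed (adjusted p = 0.136, 0.114 and 0.327). Within mice, Arpc5 minus Arpc5l did not separate any day from control (exact permutation tests, adjusted p = 0.328 to 0.649).

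Cfl1 encodes cofilin, which severs actin filaments. It had values of -0.94, -0.33, -0.21, -0.09 and -0.65 in control mice, -0.30, -0.60, -1.07, -1.41 and -0.73 on day 1, -1.00, -0.74, -1.19, -0.76 and -1.08 on day 2 and -0.34, -0.22, -0.32, -0.51 and -0.81 on day 5. Control mouse 1 lay among the day 2 mice, and the other control mice were higher. Cfl1 fell by 0.51 ± 0.18 on day 2 (1.42-fold lower, adjusted p = 0.0472) and rose by 0.51 from day 2 to day 5 (adjusted p = 0.0419). Both calls are near the threshold. With quantile-normalized arrays the day 2 difference was -0.15 (adjusted p = 0.689). It was also lost without control mouse 2, 3 or 4, day 1 mouse 5, day 2 mouse 1, 3 or 5, or day 5 mouse 1 or 3 (adjusted p = 0.051 to 0.126). Further losses came with genes of at least 2 mice a group tested (0.0541), technical replicate 2 alone (0.058), each mouse centred on its median (0.0524), a trended and robust spread (0.0875) and control mouse 4 and day 1 mouse 1 both left out (0.0847). The rise to day 5 was lost without day 2 mouse 1, 3 or 5 or any of day 5 mice 1 to 4 (0.0573 to 0.107), with quantile-normalized arrays (0.32, adjusted p = 0.38) and with a trended and robust spread (0.0791).

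Pfn1, or profilin, which feeds actin monomers to growing filaments, ran near Cfl1 without passing. Its day 2 difference was -0.50 (95% interval -0.97 to -0.04, adjusted p = 0.12), with all 5 mice below the control mean. Of the 2978 other features measured in all 20 mice, the named gene whose values were most like those of Pfn1 was Cfl1 (r = 0.80 over 20 mice, a description of values that share arrays). Tmsb4x, which holds actin monomers, spanned -0.53 to 1.19 in 4 control mice and had 16 mice with values. Wdr1, which helps cofilin, and the coronins Coro1c and Coro7 passed in no comparison. Arpc4 and Arpc1a, further Arp2/3 subunits, and Capza2, which caps filament ends, had differences from control between -0.13 and 0.16. Of the values that many probes of an array share, as saturated spots would, Tmsb4x had 7, Actg1 3, Pfn1 3, Actb 2 and Arpc5 1.

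**Figure D3:**
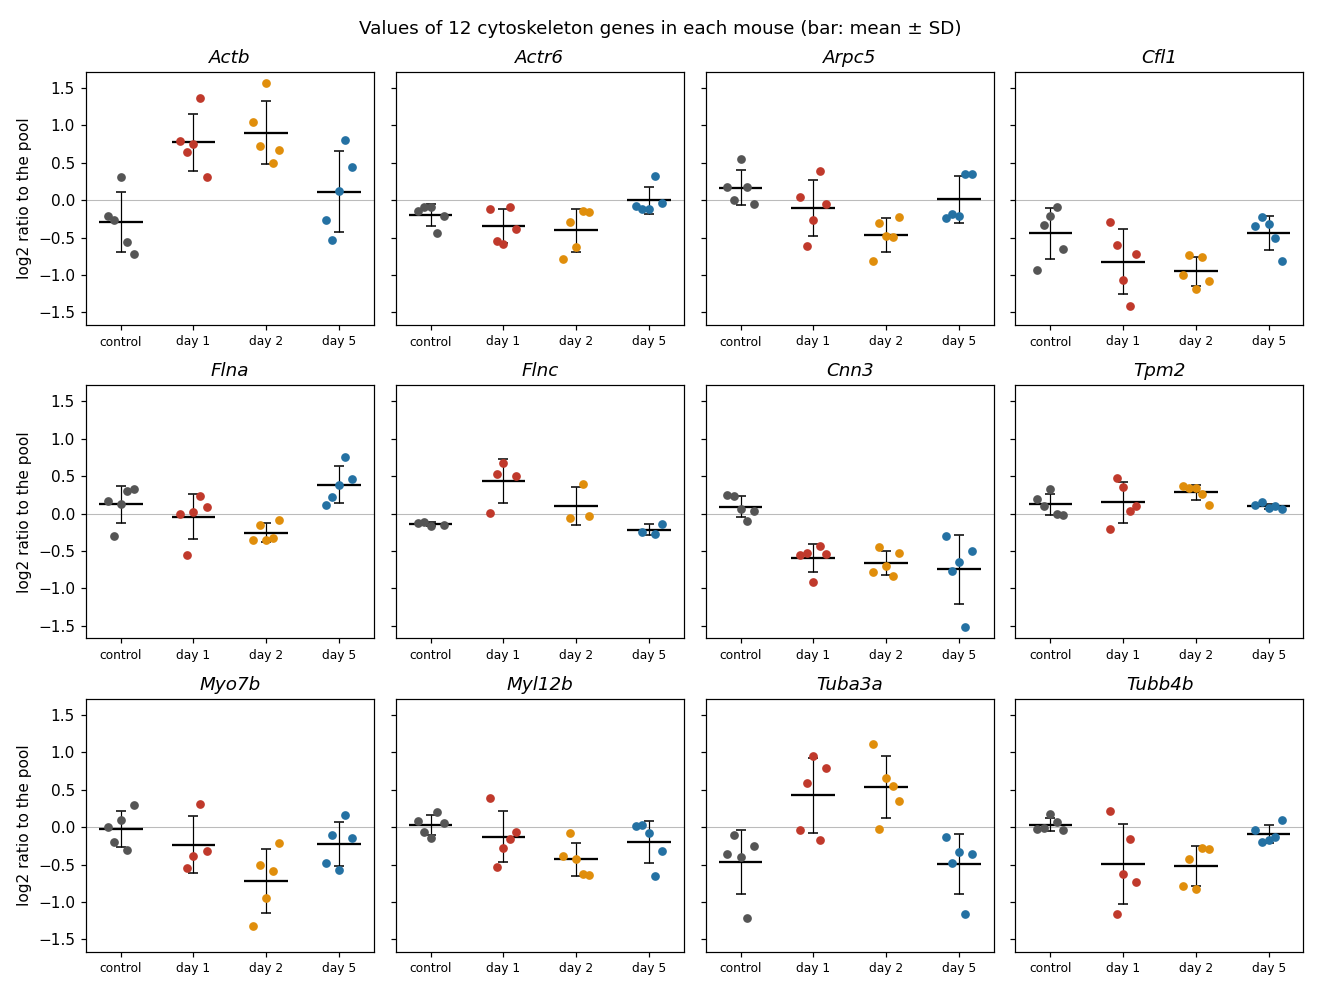
Log2 ratio to the pool (y axis) in each mouse (points) by group (x axis) for the 2 genes of each role with the smallest F test p, with bars for mean ± SD. Cnn3 lies lower in all treated mice than in any control mouse, and Actb and Tuba3a are raised on days 1 and 2.

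Of the cross-linkers, Flna and Flnc encode filamins, which join filaments into a mesh. Flna had values of 0.17, -0.29, 0.12, 0.31 and 0.32 in control mice, -0.01, -0.55, 0.03, 0.24 and 0.08 on day 1, -0.35, -0.15, -0.36, -0.33 and -0.08 on day 2 and 0.11, 0.22, 0.38, 0.75 and 0.46 on day 5. Day 5 mice were all above day 2 mice, and the control mice reached into both. From day 2 to day 5 Flna rose by 0.64 ± 0.14 (1.56-fold, adjusted p = 0.00252), with an adjusted p of at most 0.00994 whichever mouse was left out. It rose by 0.43 from day 1 to day 5 (adjusted p = 0.031), lost without day 1 mouse 2 or day 5 mouse 3, 4 or 5 (0.0511 to 0.112). That rise was lost too with technical replicate 2 alone (adjusted p = 0.0518), quantile-normalized arrays (0.0558) and the 2 groups fitted alone (0.0647). The day 2 difference from control was -0.38 (adjusted p = 0.0663) and that of day 5 was 0.26 (adjusted p = 0.548).

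Flnc, the filamin best known from muscle, went another way. It had values of -0.13, -0.11, -0.17 and -0.15 in control mice 1, 2, 3 and 5, of 0.01, 0.53, 0.68 and 0.51 in day 1 mice 1, 2, 3 and 5, of -0.06, 0.39 and -0.03 in day 2 mice 2, 4 and 5, and of -0.24, -0.27 and -0.13 in day 5 mice 2, 4 and 5. The other 6 mice had no value. The 4 day 1 mice lay above the 4 control mice and above the 3 day 5 mice. Flnc rose by 0.57 ± 0.14 on day 1 (1.49-fold, n = 4 and 4, adjusted p = 0.00993), and it fell by 0.65 from day 1 to day 5 (n = 3 and 4, adjusted p = 0.00446). With a mouse left out, Flnc could still be tested in 14 of 20 fits, and both calls were kept in these, with an adjusted p of at most 0.0376 for the rise. These fits include those without the 6 mice that had no value, which remove no value of Flnc. No fit left out a day 2 or day 5 mouse with a value, so the fall to day 5 was never tested without any of its 3 day 5 mice. On day 2 the difference from control was 0.24 (adjusted p = 0.289).

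Actn2, an alpha-actinin best known from muscle, Lcp1, the plastin of white cells, and Vcl, or vinculin, passed in no comparison. Actn2 had the widest day 2 spread of the 5, from -1.50 to 0.03, and a difference of -0.61 (adjusted p = 0.0971). Lcp1 was read by 2 probes that disagreed on day 2, with differences of 0.10 and -0.50.

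Cnn3, which encodes the actin-binding calponin 3, was the one member that passed on day 5. It had values of 0.25, 0.24, 0.06, -0.10 and 0.03 in control mice, -0.56, -0.52, -0.92, -0.44 and -0.54 on day 1, -0.78, -0.45, -0.71, -0.84 and -0.53 on day 2 and -0.30, -0.77, -0.64, -1.51 and -0.50 on day 5. All 15 treated mice were below all 5 control mice. Day 5 mouse 4 was the lowest, and the treated groups overlapped one another.

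Cnn3 fell by 0.69 ± 0.16 on day 1 (1.61-fold lower, adjusted p = 0.00486), by 0.75 ± 0.16 on day 2 (1.69-fold lower, adjusted p = 0.00224) and by 0.84 ± 0.16 on day 5 (1.79-fold lower, adjusted p = 0.00273). No pair of treated days differed past the threshold, and the 95% interval of day 5 minus day 2 was -0.41 to 0.24. Leaving out any mouse kept the 3 calls, and the day 5 difference then ran from -0.95 to -0.65. Cnn1 and Cnn2, the other calponins, had no value in any mouse. Tpm2, a tropomyosin, had values of 0.20, 0.10, 0.33, 0.00 and -0.02 in control mice, -0.21, 0.48, 0.36, 0.03 and 0.10 on day 1, 0.36, 0.35, 0.34, 0.27 and 0.12 on day 2 and 0.11, 0.15, 0.07, 0.10 and 0.06 on day 5. Its groups overlapped, and its largest difference from control was 0.16 on day 2 (adjusted p = 0.325).

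Of the 7 myosin genes, 2 fell on day 2 (28.6%, where 19.2% of all features passed and 9.61% fell), and none passed in any other comparison. Myo7b, an unconventional myosin of brush borders, had values of 0.00, -0.20, 0.09, -0.31 and 0.29 in control mice, -0.54, -0.38, 0.31 and -0.32 in day 1 mice 2 to 5, -1.32, -0.51, -0.95, -0.59 and -0.21 on day 2 and -0.48, -0.11, -0.57, 0.16 and -0.14 on day 5. Only day 2 mouse 5 reached the control range. Myo7b fell by 0.69 ± 0.19 on day 2 (1.62-fold lower, adjusted p = 0.0138). Without day 2 mouse 1 it was lower by -0.54 (adjusted p = 0.0546), which no longer passed.

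Myl12b encodes a regulatory light chain of non-muscle myosin. It was at 0.08, -0.06, -0.15, 0.21 and 0.06 in control mice, at 0.40, -0.53, -0.28, -0.16 and -0.07 on day 1, at -0.39, -0.08, -0.42, -0.62 and -0.64 on day 2 and at 0.01, 0.03, -0.07, -0.65 and -0.31 on day 5. Only mouse 2 of day 2 lay within the control range. Myl12b fell by 0.46 ± 0.15 on day 2 (1.38-fold lower, adjusted p = 0.0366). It stood at the shared, saturated-looking value on 7 arrays, and with such values left out the difference was -0.40 (adjusted p = 0.0655). The call was also lost without control mouse 1, 4 or 5 or day 2 mouse 1, 3, 4 or 5 (0.0628 to 0.0836).

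The neighbouring light chain gene Myl12a had a day 2 difference of 0.00 (95% interval -0.22 to 0.22). Myl12b minus Myl12a was -0.0245 ± 0.088 (SD, n = 5) in control and -0.484 ± 0.224 on day 2, with no overlap (two-sided exact permutation test, p = 0.00794, adjusted p = 0.0238). On days 1 and 5 the 2 groups overlapped (adjusted p = 0.259 and 0.222). The pair was chosen after its values had been seen, so these p-values are a description. The shared, saturated-looking values of Myl12b were kept in this difference. Both genes encode nearly the same protein, and cross-hybridisation was not tested. Myh9, the non-muscle heavy chain that pairs with these light chains, had a day 2 difference of -0.43 (adjusted p = 0.0503), with 5 of 5 mice below the control mean. The muscle genes Myl2 and Myh3 and the non-muscle Myh14 passed in no comparison.

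The tubulins split. Tuba3a encodes an alpha-tubulin best known from testis, and its values were -0.35, -0.10, -0.40, -1.21 and -0.26 in control mice, -0.04, 0.59, 0.95, -0.17 and 0.79 on day 1, 1.11, -0.02, 0.66, 0.55 and 0.35 on day 2 and -0.13, -0.48, -0.33, -1.17 and -0.36 on day 5. All day 2 mice exceeded all control and day 5 mice, and on day 1 mice 1 and 4 stayed near the top of the control range. Mouse 4 was the lowest of both the control and the day 5 group.

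Tuba3a rose by 0.89 ± 0.24 on day 1 (1.85-fold, adjusted p = 0.0123) and by 1.00 ± 0.24 on day 2 (adjusted p = 0.00538), in 5 of 5 mice each. It fell by 1.02 from day 2 to day 5 (2.03-fold lower, adjusted p = 0.0033) and by 0.92 from day 1 to day 5 (adjusted p = 0.00654). Against control, day 5 differed by -0.03 (95% interval -0.52 to 0.47). No left-out mouse ended these calls, with at most 0.0454 on day 1. Without both control mouse 4 and day 1 mouse 1 the rises were 0.82 and 0.81 (adjusted p = 0.0168 and 0.0157).

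Tuba3b, a near copy of Tuba3a, passed on no day against control. Its values ran from -0.32 to 0.35 in control mice, -0.30 to 0.08 in 3 day 1 mice, -0.35 to 0.10 on day 2 and 0.21 to 0.29 in 3 day 5 mice. It rose by 0.42 ± 0.15 from day 2 to day 5 (adjusted p = 0.0474, n = 3 and 5), with no overlap. That call was lost without control mouse 2 or 5, day 2 mouse 1, 2, 3 or 5 or day 5 mouse 2 or 4 (0.0501 to 0.113). Day 5 mice 2 and 4 had no Tuba3b value and control mice are outside this comparison, so the difference stayed at 0.42 without them. Only its spread and adjustment changed there. It was lost too with technical replicate 1 alone (0.36, adjusted p = 0.202), with all 40 arrays and the mouse as a random block (0.146) and with genes of at least 2 mice a group tested (0.0536). Tuba3a minus Tuba3b was -0.583 ± 0.53 (SD, n = 5) in control and 0.691 ± 0.479 on day 2, with no overlap (exact permutation test, p = 0.00794, adjusted p = 0.0238). On day 1, with 3 mice, the difference was 0.629 ± 0.781 (exact permutation p = 0.0357, adjusted p = 0.0857). The groups overlapped, with day 1 mouse 4 below control mouse 3. This pair too was chosen after its values had been seen, so its p-values are a description. Alpha-tubulin genes are close copies of one another, so which of them a probe reports is uncertain, and 2 probes annotated to several of them were left unnamed.

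Tubb4b, a widely expressed beta-tubulin, had values of -0.02, -0.02, 0.17, 0.08 and -0.04 in control mice, 0.22, -1.17, -0.62, -0.15 and -0.73 on day 1, -0.78, -0.43, -0.83, -0.28 and -0.29 on day 2 and -0.04, -0.20, -0.18, -0.13 and 0.09 on day 5. Day 2 mice were all below control mice, while day 1 mouse 1 was above them. Tubb4b fell by 0.52 ± 0.18 on day 1 (adjusted p = 0.039, 4 of 5 mice below the control mean) and by 0.56 ± 0.18 on day 2 (adjusted p = 0.0295). The day 1 call was lost without any one of the 5 control mice or without day 1 mouse 2, 3 or 5 (0.054 to 0.138), with technical replicate 2 alone (0.0685) and with the 2 groups fitted alone (0.079). The day 2 call was lost without control mouse 3 or 4 or day 2 mouse 1 or 3 (0.0547 to 0.0884). With control mouse 4 and day 1 mouse 1 both left out, the day 1 difference was -0.69 (adjusted p = 0.00552). Tubb3, best known from neurons, and Tubb2b passed in no comparison, and the differences of Tubb2b from control all lay between -0.05 and -0.02.

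Tuba3a differed from the other members in how many features of the array varied with it. Of 2978 other features with values in all 20 mice, 107 correlated with it at 0.9 or above and 14 at 0.95 or above, where the other 20 members measured in all mice had 0 to 4 at 0.9 or above. The named genes most like it were Nf2 (r = 0.987), which encodes merlin, Sox13 (0.973), Gja10 (0.965), Seh1l (0.965) and Snx24 (0.962). These correlations are over 20 mice whose values share arrays and groups and are given as a description. Since the 5 genes were chosen for likeness to Tuba3a over the same mice, their differences from control are given with no test. On days 1 and 2 these were 0.68 and 0.74 for Nf2 and 1.05 and 1.11 for Snx24. On day 5 the differences of the 5 lay between -0.11 and 0.05. The closest named genes of Actr6, Arpc5 and Tubb4b were Blzf1 (0.927), Map1lc3b (0.924) and Lsm14a (0.917). Those of Cnn3 were Prep (0.861), Phlpp1 (0.837) and Vpreb3 (0.806), the last a gene of the B cell list.

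**Figure D4:**
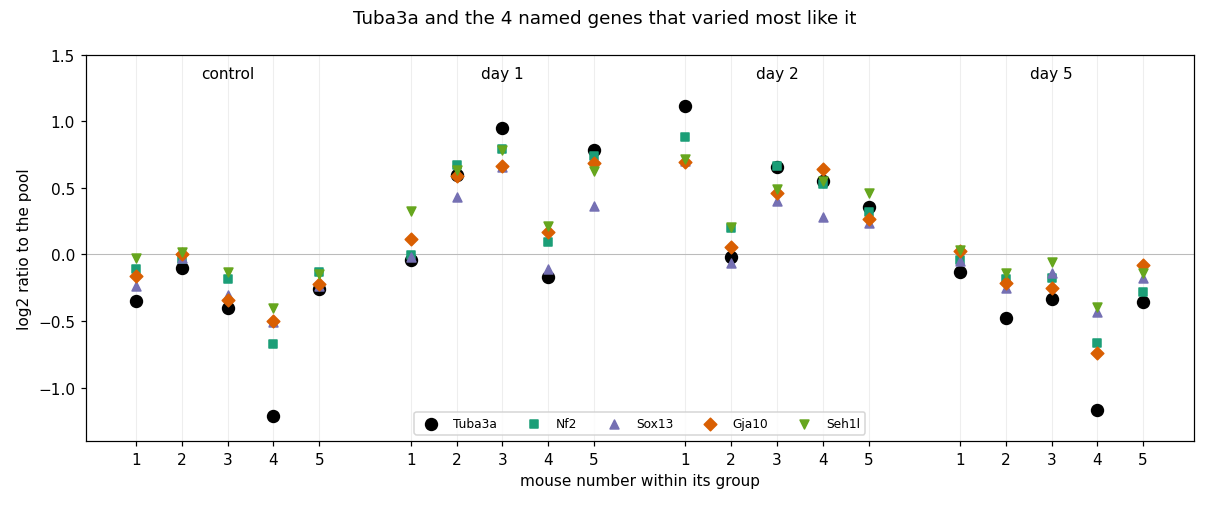
Log2 ratio to the pool (y axis) of Tuba3a and of 4 genes whose values were most like it, in each of the 5 mice (x axis) of every group. The 5 genes are high and low in the same mice, with mouse 4 lowest in the control and day 5 groups and mouse 2 lowest on day 2.

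Marker genes of marrow cell types were read in the same groups, as the mean of each list per mouse. Genes of a list did not always change alike. The macrophage list (5 genes tested) ran from -0.39 to 0.20 in control mice, 0.37 to 0.80 on day 1, 0.66 to 1.42 on day 2 and -0.62 to -0.16 on day 5. Of its genes 2 rose on day 1 and 5 on day 2, where 10.7% and 9.61% of all features rose. The endothelial list (5 genes) ran from -0.14 to 0.01 in control mice, 0.26 to 0.57 on day 1, 0.33 to 0.57 on day 2 and -0.16 to 0.12 on day 5. Of its genes 2 rose on day 1 and 3 on day 2, while Cdh5 and Tek passed on no day. The stromal list (2 genes) ran from -0.39 to -0.08 in control, 0.31 to 1.02 on day 1, 0.25 to 1.25 on day 2 and -0.70 to -0.17 on day 5. Of its genes 1 rose on day 1 (Fstl1) and 2 on day 2. The platelet list (3 genes) ran from -0.44 to 0.15 in control mice, -0.02 to 0.52 on day 1, 0.32 to 1.40 on day 2 and -0.40 to 0.19 on day 5, and 1 of its genes rose on day 1 and 2 on day 2. The macrophage, endothelial, stromal and platelet lists all had higher group means on days 1 and 2 than in control, the days when Actb and Tuba3a were high.

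The neutrophil list (6 genes) was at -0.10 to 0.21 in control mice, -0.43 to 0.35 on day 1, -1.27 to -0.87 on day 2 and -0.19 to 0.24 on day 5, low on the day when Arpc5, Cfl1, Myo7b and Myl12b fell. Of its genes 4 fell on day 2, 1 rose on day 1 (Csf3r) and 2 fell on day 5 (Csf3r and Mmp9). Over all features 10.7% rose and 8.38% fell on day 1, 9.61% went each way on day 2 and 1.72% fell on day 5. The B cell list (4 genes) was at -0.19 to 0.17 in control, -0.32 to 0.08 on day 1, -0.73 to -0.43 on day 2 and -1.66 to -0.91 on day 5. On days 1 and 2, 1 of its genes rose (Cd22) and 2 fell (Vpreb1 and Vpreb3), and on day 5 all 4 fell. Vpreb1 and Vpreb3 were thus low on days 1, 2 and 5, as Cnn3 was, while Cd22 and Ms4a1 fell on day 5 only. The red cell list (4 genes) was at -0.54 to -0.29 in control, -0.57 to 0.01 on day 1, -0.81 to -0.53 on day 2 and -1.37 to -0.24 on day 5, and 1 of its genes rose on day 1 (Alas2) and 2 fell on day 2 (Ank1 and Kel). The part of these shifts in the cytoskeleton genes was not tested, and in whole marrow fewer cells of a type cannot be told apart from less RNA per cell.

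Flnc, Actn2, Tpm2, Myl2 and Myh3 are also genes of muscle, whose markers were therefore read too. The smooth muscle genes Acta2, Cnn1, Myh11, Des and Lmod1 had no value in any mouse, and Tagln was the only gene of its list tested. It rose by 0.54 on day 1 (adjusted p = 0.0119), the day when Flnc rose. Of the skeletal muscle list only Tnni2 and Mb could be tested, and neither passed. The T cell list rested on Nkg7 alone, which passed on no day against control.

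Further actin regulators were followed in a list of 94 genes, of which 67 were on the array and 35 could be tested. On day 1, 5 rose and 0 fell (14.3%, where 19.1% of all features passed), and on day 2, 3 rose and 5 fell (22.9%, against 19.2%). On day 5 none passed in limma (2.62% of all features did), and 5 had an unadjusted p under 0.05. From day 2 to day 5, 7 rose and 3 fell (28.6%, against 20.8%). The median difference from control was -0.05, -0.19 and 0.00 on days 1, 2 and 5, where the medians of all features were -0.01, -0.02 and 0.01. Sptbn1, a spectrin of the membrane skeleton, rose by 0.82 ± 0.14 on day 1 (adjusted p = 0.000735) and by 0.90 ± 0.14 on day 2 (adjusted p = 0.000198). The formin Fmnl1, which elongates filaments, rose by 0.53 on each of these days (adjusted p = 0.00488 and 0.00428). Lima1, which bundles filaments, rose by 0.44 on day 1 (adjusted p = 0.0169). Dstn, or destrin, a relative of cofilin, fell by 0.84 ± 0.18 on day 2 (adjusted p = 0.00274), and from day 2 to day 5 it rose by 1.18 (adjusted p = 6.76e-05). Csrp1, a LIM protein, fell by 0.42 on day 2 (adjusted p = 0.00552). Without control mouse 3 the day 1 count was 3 and the day 2 count 5, without day 2 mouse 1 the day 2 count was 4, and without day 5 mouse 5 the day 5 count was 1.

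Genes of microtubules and their motors formed a list of 72, with 54 on the array and 20 tested. On day 1, 1 rose and 1 fell (10%, where 19.1% of all features passed), and on day 2, 2 rose and 5 fell (35%, against 19.2%). On day 5 none passed in limma (2.62% of all features did), and 1 had an unadjusted p under 0.05. The median differences from control were -0.15, -0.25 and -0.01, beside -0.01, -0.02 and 0.01 for all features. Pfdn1, a subunit of the prefoldin chaperone that hands over new actin and tubulin, rose by 0.84 ± 0.18 on day 1 (adjusted p = 0.00342) and by 0.70 ± 0.18 on day 2 (adjusted p = 0.00982). Mid1ip1, a partner of the microtubule protein MID1, fell by 0.42 on day 1 (adjusted p = 0.0365) and by 0.91 on day 2 (adjusted p = 0.000115). Nde1 and Ndel1, which regulate dynein, fell on day 2 by 0.52 and 0.41 (adjusted p = 0.0109 and 0.0111). The day 1 count was 1 without control mouse 2 or 3 or day 1 mouse 2, 3 or 5 and 4 without day 1 mouse 1 or 4. The day 5 count was 1 without day 5 mouse 1 or 5.

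Counts of the 35 genes also changed with single mice left out. The shares of all features in these fits, and in those of the lists above, are not given here. The changes are thus not read as particular to these genes. On day 2 the 8 became 4 without day 2 mouse 1 and 5 without day 2 mouse 3, and the 9 of the F test became 5 without either. From day 2 to day 5 the 7 became 3 without day 2 mouse 1, 2 without day 2 mouse 3, 4 without day 5 mouse 2 and 3 without day 5 mouse 4. With quantile-normalized arrays 2 rose and 2 fell in that comparison. From day 1 to day 5, 1 of the 35 rose and 3 fell (11.4%, where 25.3% of all features passed, 12.2% higher and 13.1% lower). That count became 8 without day 1 mouse 1 and 2 without day 1 mouse 2 or any one of day 5 mice 2 to 5. On day 5 against control the count was 2 without control mouse 4.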

How the data were processed

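Mouse marrow RNA was measured on 40 arrays, 2 for each of 20 mice. Per the labels' protocols, RNA was prepared with the RNeasy Midi kit of Qiagen, amplified with an Ambion amino allyl kit and labelled. The authors' deposited values are 1 log ratio per probe and array, read here as log2 of sample over pool, since the dye labels put every mouse in Cy5. For the scanner, normalization, log base and blank rule: not given in the sources used here.

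Gene names came from the platform annotation, in which 10032 of 13443 probes had 1 symbol, updated through RefSeq. The 2 arrays of a mouse were averaged, then probes of a symbol. Features with values in at least 3 mice of every group (5297 of 13027) were fitted with 1 mean per group in limma 3.58.1 under R 4.3.3 (prior degrees of freedom 7.8), with Benjamini-Hochberg adjustment over all of them and a threshold of 0.05. No value was filled in. The steps were tested on simulated data. Precision rests on 5 mice a group.

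Shared, saturated-looking values, equal within 0.001 on an array, were found on 34 of 40 arrays (634 values, 0.268%) and kept. Genes named with values were those past the threshold, for a role without one the gene with the smallest F test p, and up to 4 genes per pathway list and comparison. Values in every mouse are given for the 2 genes per role with the smallest F test p, with Actg1 added after its values were seen. The members, lists, tests and alternatives were chosen with earlier results of these data known. Same-numbered mice were checked for pairing: of 30 pairs between groups, 8 correlated over 0.1 (range -0.377 to 0.312), and in no pair of groups did all 5 do so, so the numbers were not taken as pairs.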

Additional observations from a re-analysis of the deposited data

Results flagged for a closer look

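A mouse stood far from the other 4 of its group in 3 of the 44 groups looked at. How often chance alone would give such a mouse was not tested, so the 3 are only described. Actr6 was at 0.32 in day 5 mouse 4, with the next value at -0.04. Cnn3 was at -0.92 in day 1 mouse 3, with the next at -0.56. Tuba3a was at -1.21 in control mouse 4, with the next at -0.40.

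The effect of treatment differed between days, by the limma test of the difference itself, in 11 cases. They are 20% of the 35 genes against day 2 (20.8% of all features) and 11.4% against day 1 (25.3% of all features). Such cases were thus no more frequent here than over all features. The calls that were lost in other fits are named with each gene above. Against day 2, day 5 differed by -0.79 for Actb, -1.02 for Tuba3a, 0.40 for Actr6, 0.48 for Arpc5, 0.51 for Cfl1, 0.64 for Flna and 0.42 for Tuba3b. Against day 1, day 5 differed by -0.66 for Actb, -0.92 for Tuba3a, -0.65 for Flnc and 0.43 for Flna.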

How the results depend on the processing

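Of the 25 calls on single cytoskeleton genes, 11 held under every alternative run other than left-out mice. There were 15 such runs, or 14 for a gene that could not be tested with all 5 mice required, such as Flnc. They include a stricter threshold of 0.01, which is no change of processing. Among these runs it alone ended the calls of Arpc5, Myo7b and Tubb4b on day 2. The same holds for Tuba3a on day 1 and Actb from day 2 to day 5. With every mouse left out in turn, where the gene could still be tested, 13 calls held. The calls of Flnc are among them, though no day 2 or day 5 mouse with a Flnc value could be left out. A left-out mouse outside the compared groups, or without a value, leaves the difference unchanged. It acts only through the shared spread and the adjustment over all features. No call turned its direction. With an adjusted p under 0.01, the 35 genes gave 3 calls on day 1, 3 on day 2, 2 from day 2 to day 5, 2 from day 1 to day 5 and 5 in the F test, the actin regulators 2 and 4 and the microtubule genes 1 and 2 on days 1 and 2. Under 0.1, the 35 gave 11 from day 2 and 8 from day 1 to day 5, the actin regulators 8 on day 1 and the microtubule genes 5 on day 1 and 1 on day 5. Quantile normalization gave the 35 genes 4 and 2 calls from days 2 and 1 to day 5 and the microtubule genes 1 on day 5. All 40 arrays with the mouse as a random block gave 7 from day 1 to day 5, and for the microtubule genes 4 on day 1 and 1 on day 5. Technical replicate 1 alone gave 2 on day 5, replicate 2 alone 1 microtubule gene on day 1, and fitting the 2 compared groups alone also 1. Leaving out control mouse 4 and day 1 mouse 1 together, an alternative added after seeing the data, gave 2 on day 5, 8 from day 1 to day 5 and 4 microtubule genes on day 1. The shares of all features under these settings are not given here, so the counts say nothing particular about these genes. The cause of these shifts beyond the threshold or number of mice was not tested.

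With a mouse left out in turn, the 35 genes gave 4 to 7 calls on day 1, 4 to 10 on day 2, 1 to 2 on day 5, 0 to 0 from day 1 to day 2, 2 to 8 from day 2 to day 5, 2 to 8 from day 1 to day 5 and 5 to 10 in the F test. The actin regulators gave 3 to 7, 4 to 10 and 0 to 1 on days 1, 2 and 5, and the microtubule genes 1 to 4, 5 to 9 and 0 to 1. Shares of all features are not given for these fits or for the block fit that follows. With the replicate number as a block, the 35 genes gave 5, 9 and 1 calls on days 1, 2 and 5 and 0, 8, 6 and 9 in the later comparisons and the F test, and the calls lost were Cfl1 on day 2 (adjusted p = 0.0568) and from day 2 to day 5 (0.0502). Among the mice, 10 of 20 correlated best with a mouse of their own number, and the number that chance gives was not worked out. Between days 2 and 5, same-numbered mice 1 to 5 correlated at 0.312, 0.244, 0.142, -0.026 and 0.125. Between control and day 1 these were -0.003, 0.079, 0.146, 0.211 and 0.219. The many blanks and the saturated-looking spots limit what can be read for abundant genes.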
